A study of Mus musculus with 3 samples.

Results

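The S100 genes encode small proteins that bind calcium through a pair of EF-hand motifs and mostly act as dimers. The 10 genes described here are S100a1, S100a4, S100a6, S100a8, S100a9, S100a10, S100a11, S100a13, S100a14 and S100a16. They were taken by symbol from a fixed list of family members known from epithelial, stromal and neutrophil cells, and make up 10 of 47480 gene symbols measured. All 10 passed the filter on low counts, as did 12710 genes in all.

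RNA was sequenced from 3 mammary tumours of the FVB-MMTV-Neu strain, in which the mouse mammary tumour virus promoter drives the rat Neu (Erbb2) transgene in mammary epithelium. Per the labels, all 3 tumours were grown orthotopically in syngeneic hosts to 5 mm and were collected after a further 7 days without treatment, so there is 1 group and no treated arm. The series' design text instead speaks of tumours from untreated MMTV-Neu mice, and neither source gives age or says whether the tumours came from separate donors. They are called tumours 1, 2 and 3 in order of deposition, with 1 library each.

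S100 proteins work inside the cell by binding target proteins when calcium rises, and some are secreted and bind receptors such as Tlr4 and Ager (RAGE). S100a8 and S100a9 form calprotectin, the abundant calcium- and zinc-binding heterodimer of neutrophils. S100a10 does not respond to calcium and pairs with annexin A2 at membranes, S100a4 is known from fibroblasts and motile cells, and S100a14 and S100a16 are known from epithelia.

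Total estimated counts were 47449153, 11388769 and 17147394 in tumours 1, 2 and 3, and the 10 genes held 0.112, 0.406 and 0.369% of them. Per the file headers, tumour 1 has lane number 1 and tumours 2 and 3 have lane number 5, so lane number and the difference of tumour 1 from the others cannot be told apart. A shared lane number does not show that tumours 2 and 3 were sequenced in the same run. Tumour 1 stood apart across all genes: 2809 genes exceeded both other tumours by 2-fold or more there, and 2632 were lower by as much. All 12 listed luminal epithelium markers passed the filter, with a sum of 2495, 1898 and 2834 CPM (counts relative to the scaled library total). Epithelial transcripts were thus found in each tumour. The luminal keratin Krt8 was at 407, 734 and 1038 CPM, an order that not all of the 12 followed. Skeletal muscle markers summed to 5.17 CPM in tumour 1 against 53950 and 24390 CPM in tumours 2 and 3. With 1 library per tumour, a difference between single tumours is not checked by replicates, and the spread between the 3 libraries may be partly technical.

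The genes lie in 2 blocks of mouse chromosome 3 (GRCm38). The first holds 8 of them in 185 kb (90511034 to 90695721), in the order S100a1, S100a13, S100a14, S100a16, S100a4, S100a6, S100a8 and S100a9. The second, 2.82 Mb further on, holds S100a11 (93520488 to 93526287) and S100a10 (93555080 to 93564643). S100a1 and S100a9 are on the minus strand and the others on the plus strand. S100a4 (90603771 to 90606045) shares 302 exon bases with Gm42674, a gene on the same strand that had 0 counts in all libraries, as did the pseudogene S100a11-ps. How reads were divided between such pairs is uncertain.

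RefSeq promoters (GRCm38.p6) were matched for 8 of the 10 genes, all but S100a10 and S100a14. The sequences shown are the 250 bases before the annotated start of genes whose levels the results below turn on, and for S100a13 the 104 bases between its start and that of S100a1, which is read in the other direction. Capitals mark matches on either strand to one of the motifs searched. A core promoter element bound by the general transcription machinery was spelled TATAAA. The element bound by the factor NF-Y was spelled CCAAT. The element bound by Sp1 and related factors was spelled GGGCGG. The site of AP-1 factors, where N is any base, was spelled TGANTCA. The site of STAT factors was spelled TTCNNNGAA.
S100a13 (chr3:90514331-90514434, plus strand): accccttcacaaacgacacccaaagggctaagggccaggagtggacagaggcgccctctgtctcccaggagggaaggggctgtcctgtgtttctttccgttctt
S100a4 (chr3:90603520-90603769, plus strand): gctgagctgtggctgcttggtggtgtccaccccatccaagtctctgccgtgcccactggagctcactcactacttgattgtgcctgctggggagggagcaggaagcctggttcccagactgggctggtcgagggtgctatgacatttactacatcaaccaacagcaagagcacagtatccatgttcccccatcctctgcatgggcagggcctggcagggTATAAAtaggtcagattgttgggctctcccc
S100a6 (chr3:90612644-90612893, plus strand): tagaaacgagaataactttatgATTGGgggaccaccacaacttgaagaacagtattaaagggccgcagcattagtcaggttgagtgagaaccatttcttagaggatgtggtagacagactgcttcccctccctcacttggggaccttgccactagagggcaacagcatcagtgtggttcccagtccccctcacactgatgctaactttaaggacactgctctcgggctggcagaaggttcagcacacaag
S100a8 (chr3:90668821-90669070, plus strand): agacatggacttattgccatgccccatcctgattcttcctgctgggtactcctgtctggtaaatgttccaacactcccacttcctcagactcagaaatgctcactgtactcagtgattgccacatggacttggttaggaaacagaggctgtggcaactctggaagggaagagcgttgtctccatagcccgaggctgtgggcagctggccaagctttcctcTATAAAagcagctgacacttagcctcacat
S100a9 (chr3:90695722-90695971, minus strand): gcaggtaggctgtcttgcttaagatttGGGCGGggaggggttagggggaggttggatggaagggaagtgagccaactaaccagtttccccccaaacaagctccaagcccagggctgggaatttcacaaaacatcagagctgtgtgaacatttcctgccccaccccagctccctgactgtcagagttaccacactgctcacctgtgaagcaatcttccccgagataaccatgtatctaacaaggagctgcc
S100a11 (chr3:93520246-93520495, plus strand): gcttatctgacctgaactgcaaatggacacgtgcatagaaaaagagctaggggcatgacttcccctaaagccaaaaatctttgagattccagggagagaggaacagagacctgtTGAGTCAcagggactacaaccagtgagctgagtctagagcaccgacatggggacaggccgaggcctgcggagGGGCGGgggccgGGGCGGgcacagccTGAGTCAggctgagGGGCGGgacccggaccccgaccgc

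S100a4 and S100a8 each held TATAAA, from 31 to 26 and from 30 to 25 bases before the start. Of 32851 RefSeq promoters, 12.4% held TATAAA somewhere in the same 250 bases. S100a9, the calprotectin partner of S100a8, did not hold these letters and had 1 GGGCGG. S100a11 had 3 matches to GGGCGG and 2 to the AP-1 motif. The Sp1 motif was found in 32.7% of promoters and the AP-1 motif in 6.75%. S100a6 held only the NF-Y motif in reverse orientation, letters found in 33.8% of promoters. The second of the 2 RefSeq starts of S100a16 had 1 match to the Sp1 motif and 1 to the AP-1 motif, and its first start and the windows of S100a1 and S100a13 had none. The STAT motif, found in 7.02% of promoters, was in none of the windows of the 8 genes. A match of letters is a description and does not show a binding site.

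S100a6 was the most abundant of the 10 genes and S100a14 the least, counting reads per transcript length. Levels below are CPM of scaled library totals, and between genes CPM per kilobase of the longest annotated transcript. S100a6, which encodes calcyclin, was at 295, 5040 and 3648 CPM per kb in tumours 1, 2 and 3, a mean of 2994 ± 2439 (SD, n = 3). It lay above 98.9% of genes past the filter in tumour 1 and above 99.8% in tumours 2 and 3. S100a11 followed at 521 ± 88.3 CPM per kb, S100a16 at 480 ± 518 and S100a10 at 244 ± 98.1. The SD of S100a16 exceeded its mean, whereas that of S100a11 was a small part of its mean.

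Lower in the order came S100a13 at 126 ± 112 CPM per kb, S100a4 at 81.1 ± 57.2, S100a1 at 46.0 ± 27.9, S100a9 at 23.1 ± 12.3, S100a8 at 14.6 ± 12.4 and S100a14 at 7.67 ± 0.942. The ranges over the tumours overlapped for every pair of neighbours in this order, so the ranges alone do not separate neighbouring ranks. The order within single tumours varied. S100a11 ranked first and S100a6 second in tumour 1, while S100a6 ranked first in tumours 2 and 3. S100a13, a factor of non-classical protein release, ranked 8 in tumour 1, 4 in tumour 2 and 5 in tumour 3. S100a9 was above S100a8 per length in all 3 tumours, the only pair of neighbours whose order held in each.

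**Figure D1:**
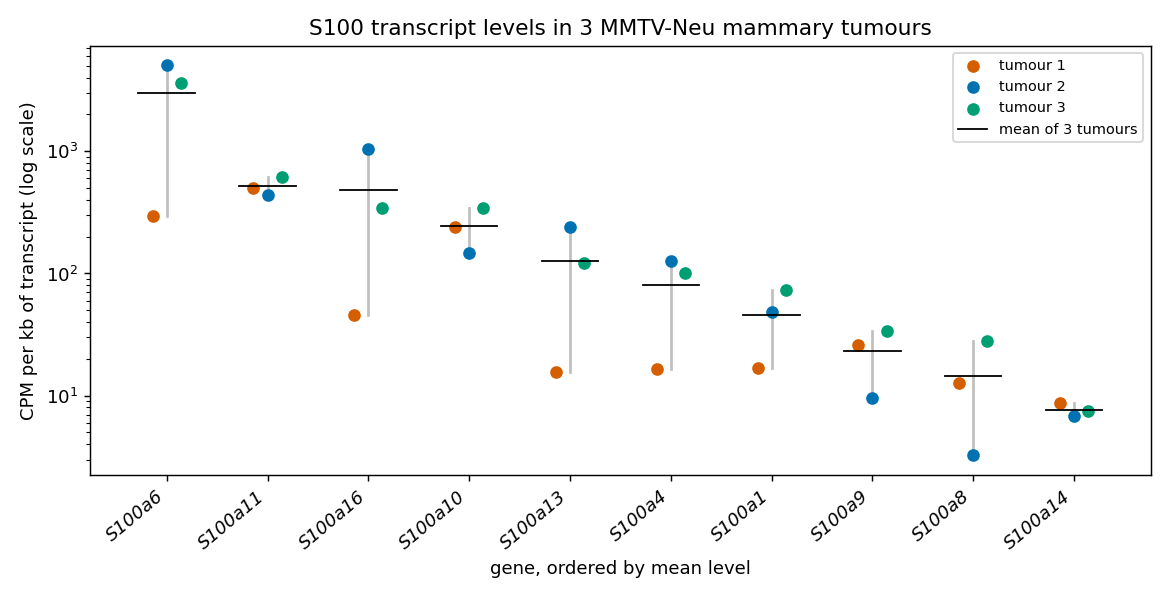
Level of each S100 gene in CPM per kb of transcript (log axis) by tumour, with the mean of 3 tumours as a black line and the range as a grey line. Tumour 1 lies far below the others for S100a6, S100a16, S100a13 and S100a4, and the 3 tumours nearly coincide for S100a14.

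Of the 10 genes, 5 were low in tumour 1. The ribosomal RNA symbol Rn18s-rs5 also differed with this split, at 0.1997% of counts in tumour 1 against 7.87 and 6.68% in tumours 2 and 3. Scaling without skeletal muscle genes and Rn18s-rs5 again gave 5 genes, but it hardly moved the tumours relative to each other. Mean levels rose by nearly the same proportion, from 2345 to 2510 CPM for S100a6 and from 7.25 to 7.75 CPM for S100a8. It could therefore hardly change the calls, and it removes no S100 counts that muscle may carry. S100a6, S100a16, S100a13, S100a4 and S100a1 were at least 2-fold below both other tumours in tumour 1, and 0 of the 10 genes were at least 2-fold above. Across all genes, 20.7% were at least 2-fold below both others in tumour 1 and 22.1% at least 2-fold above. At a 4-fold threshold, 4 of the 10 genes were below, all of these but S100a1, beside 8.21% of all genes, and 0 were above, beside 6.05%. The median difference of tumour 1 from the mean of the others was -0.93 on the log2 CPM scale for the 10 genes and 0.11 for all genes past the filter.

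S100a6 was at 231 CPM in tumour 1, 3947 CPM in tumour 2 and 2856 CPM in tumour 3. The level was 17.1-fold higher in tumour 2 and 12.4-fold higher in tumour 3 than in tumour 1. The 95% Poisson intervals, which cover counting error only, ran from 227 to 234 CPM in tumour 1 and from 2830 to 2883 CPM in tumour 3. Tumours 2 and 3 were both high and differed 1.38-fold, so the difference of tumour 1 far exceeded the difference between the others.

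S100a16, a broadly expressed member of the family, was at 51.4, 1187 and 386 CPM. It had the widest range of the 10 genes, 23.1-fold between tumours 2 and 1, and was also at least 2-fold above both others in tumour 2. S100a13 was at 11.2, 172 and 86.9 CPM, or 15.3-fold higher in tumour 2 and 7.74-fold higher in tumour 3 than in tumour 1. Both genes were highest in tumour 2, intermediate in tumour 3 and lowest in tumour 1. S100a6 and S100a4 had the same order, and so did the summed skeletal muscle markers, at 5.17, 53950 and 24390 CPM, whose part in these 4 genes was not tested. S100a16 was the single member apart above in tumour 2 (5.43% of all genes were), and S100a13, at 1.98-fold over tumour 3, lay just under that threshold.

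S100a4, also named metastasin and known from stromal and migrating cells, was at 8.28, 62.6 and 50.2 CPM. Tumours 2 and 3 were close to each other, 7.56-fold and 6.06-fold above tumour 1. Among fibroblast markers, 2 of 12 were at least 2-fold below both others in tumour 1, and their summed level was 5238, 7790 and 4635 CPM. Of these markers, Col1a1, a fibrillar collagen gene, was at 1576, 3695 and 1625 CPM, and Pdgfra, a receptor of fibroblasts, at 18.1, 84.5 and 59.3 CPM. Of the 12 markers, 7 were lower in tumour 1 than in tumour 3, although the sum was higher in tumour 1. The share of all genes lower in tumour 1 than in tumour 3 is not given, so this count shows no likeness to S100a4. Macrophage markers, another possible source of S100a4 and S100a6 transcripts, summed to 1122, 4146 and 2791 CPM, and 4 of 12 were at least 2-fold below in tumour 1. The complement gene C1qa, at 161, 2426 and 1369 CPM, had the highest mean among them, and the lysozyme gene Lyz2 went the other way at 478, 223 and 264 CPM. Together, C1qa and C1qc (138, 717.5 and 518 CPM) held most of the macrophage sum in tumours 2 and 3. Adgre1 (13.8, 11.6 and 11.95 CPM) and Cd68 (24.5, 18.3 and 22.8 CPM) were nearly even. C1qc, Adgre1 and Cd68 were named after their values were seen. In bulk tissue, fewer cells of a type and less RNA per cell cannot be told apart. The part of either cell type in the S100 levels was not tested.

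S100a1, known for regulating calcium cycling in striated muscle, was at 11.4, 32.9 and 49.1 CPM. Tumour 1 was lowest, 2.88-fold below tumour 2 and 4.30-fold below tumour 3. Skeletal muscle markers moved with it between tumour 1 and the others: Ckm, muscle creatine kinase, was at 0.477, 32750 and 11610 CPM, and Tnnt3, a fast troponin gene, at 0.361, 5456 and 2752 CPM. Between tumours 2 and 3 they went the other way, since the summed muscle markers were higher in tumour 2 and S100a1 was higher in tumour 3. Their part in the level of S100a1 was not tested. The difference was sensitive to scaling: tumour 1 minus the mean of the others was -1.81 on the log2 scale, -0.96 with library totals alone and -0.82 after a trend on transcript length and GC content was removed, which ended the call at 2-fold.

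S100a11, S100a14 and S100a10 were nearly even by comparison. S100a14, a membrane-associated protein of epithelia, was at 14.6, 11.4 and 12.7 CPM, or 12.9 ± 1.59 CPM (SD, n = 3), and its highest and lowest tumours differed 1.28-fold. S100a11, which binds annexin A1 and is also named calgizzarin, was at 258, 226 and 315 CPM, a range of 1.39-fold. S100a10 was at 166, 101 and 235 CPM, a range of 2.33-fold, with tumour 2 lowest. None of these 3 genes was at least 2-fold apart from both others in any tumour, but S100a10 was so below in tumour 2 with library totals alone. With library totals alone, tumour 1 was above the mean of the others by 1.13 (S100a14), 0.81 (S100a11) and 0.96 (S100a10) on the log2 scale, a scaling that raised the median of all genes in tumour 1 by 0.85.

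In a chi-square test against the scaled totals, counting noise was exceeded by all 10 genes and by 94.2% of all genes. The test compares these libraries and not conditions. S100a14 had the largest Benjamini-Hochberg adjusted p in that test, 0.0272, which was 0.216 with DESeq2 size factors, 3.63e-29 with library totals alone and from 0.0297 to 0.427 with 1 tumour left out.

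**Figure D2:**
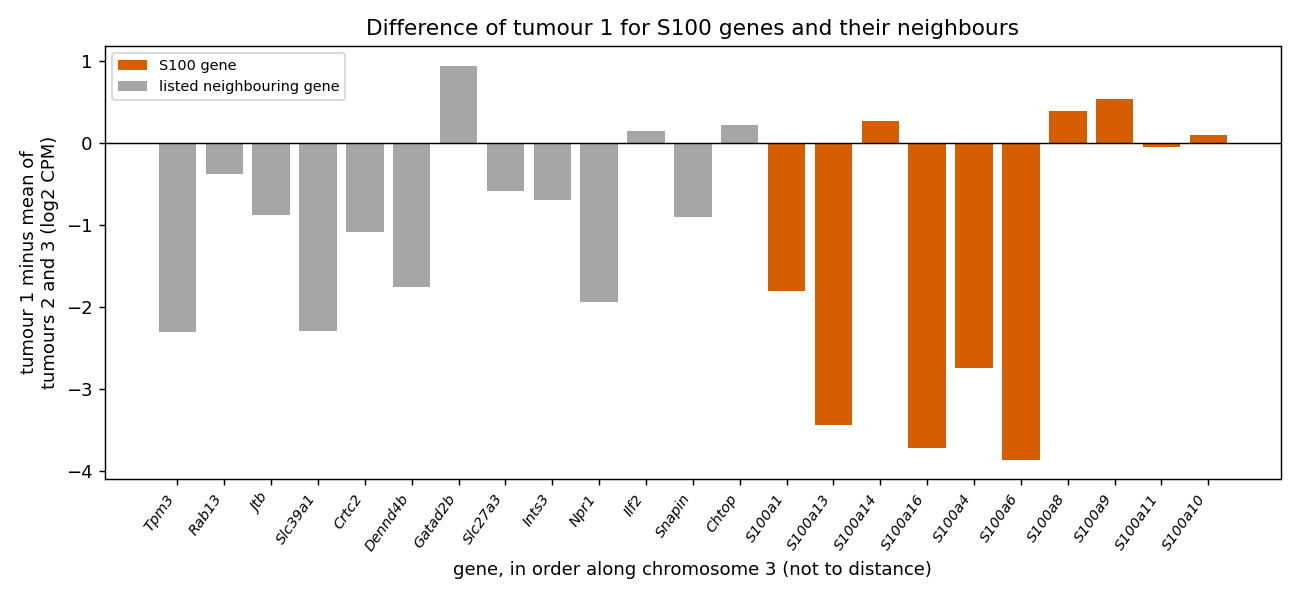
Difference of tumour 1 from the mean of tumours 2 and 3 (log2 CPM) for the S100 genes (orange) and listed neighbours past the filter (grey), in their order along chromosome 3. S100a14, close to 0, lies between S100a13 at -3.44 and S100a16 at -3.72.

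Neighbours on the chromosome did not share 1 pattern. S100a14 and S100a16 are 8.42 kb apart on the same strand, yet tumour 1 differed from the mean of the others by 0.27 for S100a14 and by -3.72 for S100a16. The S100a16 to S100a14 count ratio, which does not depend on scaling between libraries, was 3.52 in tumour 1 (95% exact binomial interval 3.28 to 3.78), 104 in tumour 2 (84.6 to 129) and 30.3 in tumour 3 (26.4 to 35.1). S100a1 and S100a13, whose starts flank the 104 bases shown above, differed too. Their S100a13 to S100a1 ratio was 0.984 in tumour 1 (0.890 to 1.09), 5.22 in tumour 2 (4.57 to 5.98) and 1.77 in tumour 3 (1.62 to 1.94). The intervals of the 3 tumours did not overlap for either ratio. Both ratios were chosen after the values were seen.

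Of 22 listed genes beside the S100 cluster, 13 passed the filter. In tumour 1, 5 were at least 2-fold below both others and 0 at least 2-fold above, with a median difference of -0.88 from the mean of the others. The zinc transporter gene Slc39a1 was at 101, 641 and 384 CPM and the tropomyosin gene Tpm3 at 85.4, 480 and 374 CPM, while Ints3, of the Integrator complex, was at 70.1, 123 and 104 CPM. The RNA-binding gene Chtop, next to S100a1, was nearly even at 104, 82.3 and 96.1 CPM, and was named for its place and after its values were seen. Of the listed epidermal genes between the blocks, none passed the filter. Among these, the filaggrin genes Flg and Flg2 had 0 counts in all 3 libraries, and the trichohyalin gene Tchh was at 6.03, 0.373 and 0.445 CPM, all named with their values already seen.

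**Figure D3:**
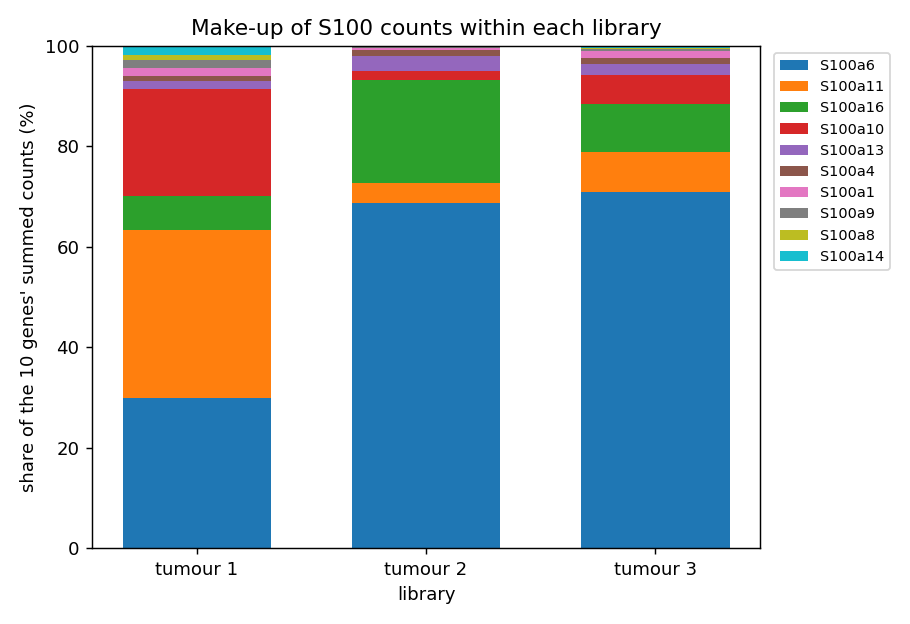
Share of each gene in the summed counts of the 10 S100 genes within each library, in percent. S100a6 makes up 68.7 and 71.0% in tumours 2 and 3 and 29.9% in tumour 1, where S100a11 and S100a10 take up 33.5 and 21.5%.

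The make-up of the S100 counts within each library needs no scaling between libraries. S100a6 held 29.9% of the 10 genes' counts in tumour 1 (95% exact binomial interval 29.5 to 30.3%), 68.7% in tumour 2 (68.3 to 69.1%) and 71.0% in tumour 3 (70.6 to 71.4%). S100a11 held 33.5, 3.93 and 7.83%, and S100a10 held 21.5, 1.76 and 5.85%. S100a16 held 6.66, 20.7 and 9.58%. The share of S100a4 was almost constant, at 1.07, 1.09 and 1.25%. Tumour 1 was thus the library with nearly equal counts of S100a6 and S100a11, at a ratio of 0.894 against 17.5 and 9.06 in tumours 2 and 3. This ratio was chosen after the values were seen. Per transcript length, S100a11 exceeded S100a6 in tumour 1, at 505 against 295 CPM per kb.

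Lowest in tumour 2 were S100a8, S100a9, S100a10, S100a11 and S100a14, of which S100a11 and S100a14 spanned only 1.39-fold and 1.28-fold. The share of all genes lowest there is not given, so how many S100 genes were lowest is not a result about them. S100a8 and S100a9 were at least 2-fold below both other tumours there. Per library, 434, 13 and 218 counts of S100a8 gave 6.27 CPM in tumour 1 (95% Poisson interval 5.70 to 6.89), 1.62 CPM in tumour 2 (0.860 to 2.76) and 13.9 CPM in tumour 3 (12.1 to 15.8). S100a9, with 934, 40 and 274 counts, was at 13.5, 4.97 and 17.4 CPM. The intervals of S100a8 did not overlap between tumours, and tumour 3 was at least 2-fold above both others. The count of 2 genes below in tumour 2 stood beside 7.14% of all genes, and S100a8 was the single member apart above in tumour 3, where 0.865% of all genes were. In tumour 3, 0 of the 10 genes were at least 2-fold below both others, beside 1.35% of all genes. The call of S100a8 in tumour 3 ended with library totals alone and after the trend on length and GC content was removed.

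The S100a9 to S100a8 count ratio was 2.15 in tumour 1 (95% exact binomial interval 1.92 to 2.42), 3.08 in tumour 2 (1.61 to 6.27) and 1.26 in tumour 3 (1.05 to 1.51). The mean was 2.16 ± 0.91 (SD, n = 3). S100a9 counts exceeded S100a8 counts in 3 of 3 tumours. The intervals of tumours 1 and 3 did not overlap, while that of tumour 2 was wide because only 13 counts lay behind it and overlapped that of tumour 1.

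Neutrophil markers did not move as 1 group with the calprotectin genes. Of 20 listed, 11 passed the filter. In tumour 2, 2 were at least 2-fold below both others, Lcn2 and Ltf, and 1 was above, Mmp9. In tumour 3, 2 were above, the granule genes Ngp and Camp, as S100a8 was. No counts of the defining marker Ly6g were found, and 0 counts allow levels of up to 0.0434, 0.373 and 0.191 CPM in tumours 1, 2 and 3. The receptor gene Csf3r was at 13.5, 22.99 and 8.71 CPM and the chemokine receptor gene Cxcr2 at 4.63, 0.870 and 1.08 CPM, so neither was highest where S100a8 was. Ngp was at 0.434, 1.74 and 7.69 CPM, and Retnlg, below the filter, at 0.217, 0 and 1.46 CPM.

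The summed neutrophil list was at 2639, 863 and 1404 CPM. Lcn2, which epithelial cells also express, was at 2572, 624 and 1265 CPM and made up 97.5, 72.3 and 90.1% of it. Without Lcn2 the sum was 67.5, 239 and 140 CPM, and without Lcn2 and the protease gene Mmp9 (13.3, 176 and 74.9 CPM) it was 54.2, 62.5 and 64.8 CPM. The sums therefore ranked the tumours in different ways, and only the one with Lcn2 had tumour 2 lowest, as S100a8 and S100a9 did. Ltf, Camp and Ngp and the sums without Lcn2 or Mmp9 were named with their values already seen. The part of neutrophils in the S100a8 and S100a9 levels was not tested.

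**Figure D4:**
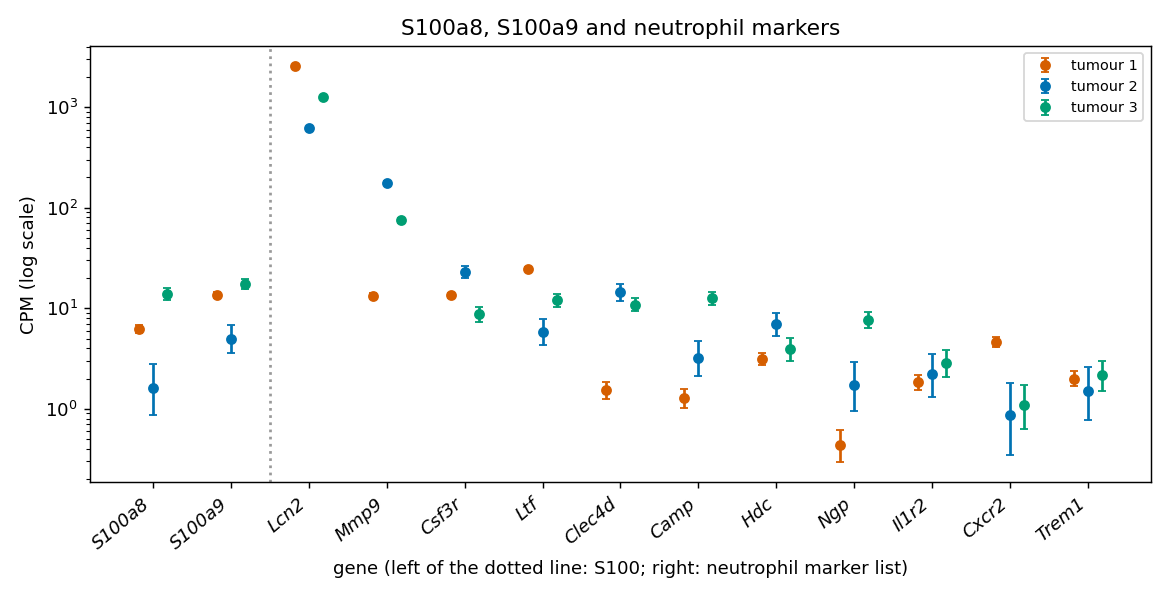
CPM (log axis) of S100a8, S100a9 and the 11 neutrophil markers past the filter in each tumour, with 95% Poisson intervals. S100a8 and S100a9 are lowest in tumour 2, while Mmp9 and Csf3r are highest there and Ngp and Camp are highest in tumour 3.

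Between tumours 2 and 3, which have the same lane number, 3 of the 10 genes were at least 2-fold lower in tumour 2 and 1 was at least 2-fold higher. Across all genes, 8.81% were lower by that measure and 7.39% higher. Tumour 3 exceeded tumour 2 8.57-fold in S100a8, 3.50-fold in S100a9 and 2.33-fold in S100a10. Tumour 2 exceeded tumour 3 3.08-fold in S100a16. With the trend on length and GC content removed, tumour 2 minus tumour 3 on the log2 scale was -2.36 in place of -3.05 for S100a8, -1.14 in place of -1.80 for S100a9 and -0.89 in place of -1.22 for S100a10, so S100a10 was no longer 2-fold apart, while S100a13 came to 1.17. The other 6 genes differed by less than 2-fold, with S100a13 1.98-fold higher in tumour 2 and S100a1 1.49-fold higher in tumour 3.

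S100a10 was set against Anxa2, which encodes the annexin it binds. Anxa2 was at 294, 1959 and 1535 CPM, and so was at least 2-fold below both others in tumour 1, where S100a10 was not. The S100a10 to Anxa2 count ratio was 0.564 in tumour 1 (95% exact binomial interval 0.551 to 0.577), 0.0515 in tumour 2 (0.0480 to 0.0553) and 0.153 in tumour 3 (0.148 to 0.159). The 3 intervals did not overlap, and the ratio spanned 10.95-fold between tumours 1 and 2. Per transcript length it was 1.88, 0.172 and 0.510, so S100a10 exceeded Anxa2 per length in tumour 1 and not in the others.

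Among 18 listed partners and receptors of S100 proteins, 17 passed the filter. In tumour 1, Anxa2, Bsg and Ager were at least 2-fold below both others, and Anxa11 and Myh9 at least 2-fold above. Bsg, a receptor of S100a9, was at 375, 1256 and 952 CPM, and Ager at 3.12, 9.57 and 15 CPM. Myh9, a nonmuscle myosin heavy chain bound by S100a4, was at 447, 153 and 124 CPM, highest in tumour 1 where S100a4 was lowest. Anxa1, the partner of S100a11, was at 262, 52.7 and 174 CPM and, with Anxa11, at least 2-fold below both others in tumour 2. Tlr4, a receptor of calprotectin, was at 5.86, 7.08 and 3.88 CPM, and Ahnak, a scaffold bound by S100a10, was at 330, 255 and 197 CPM. Cd69, below the filter, was at 0.361, 0 and 0.890 CPM. Anxa1, Anxa11 and Myh9 were named with their values already seen. The median difference of tumour 1 was 0.16 for this list, near that of all genes.

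Other EF-hand genes were set beside the S100 genes. Of 16 listed, 12 passed the filter, with 2 at least 2-fold below and 1 at least 2-fold above both others in tumour 1, and a median SD of 0.66 on the log2 scale against 1.31 for the S100 genes and 0.72 for all genes. The calpain subunit gene Capns1 was at 248, 1446 and 766 CPM and calumenin, Calu, at 409, 628 and 434 CPM. Parvalbumin, Pvalb, a calcium buffer of fast muscle, had 2 counts in tumour 1 against 26401 and 29516. It is itself 1 of the 12 listed skeletal muscle markers and is part of their sum.

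Of 7 other family members analysed, 0 passed the filter, which asks for counts in every tumour. S100b, known from glia, Schwann cells and melanocytes, was the highest at 10.8, 1.99 and 0.318 CPM from 744, 16 and 5 counts, and its Poisson intervals did not overlap between tumours. S100b was thus highest in tumour 1, opposite to S100a6. Of the Schwann cell and melanocyte markers, Sox10 was at 326, 60.4 and 113 CPM, Mbp at 17.3, 11.9 and 7.18 CPM and Erbb3 at 45.0, 45.4 and 75.5 CPM, and the part of these cells in S100b was not tested. S100a3 was at 0.463, 0 and 0.508 CPM, S100a7a at 0.159, 0 and 0.381 CPM, S100a5 at 0, 0.621 and 0.127 CPM, S100g at 0.116, 0.249 and 0 CPM and S100a2 at 0.0289, 0 and 0.127 CPM. S100z had 0 counts in all 3 libraries.

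Epithelial markers were set beside S100a14, known from epithelia, and the more broadly expressed S100a16. Of 12 luminal markers, tumour 1 had 3 that exceeded both others by at least 2-fold and 2 that were lower by as much, and 4 were below in tumour 2. Krt18 was at 461, 245 and 453 CPM, Cldn7 at 136, 278 and 382 CPM and Cldn4 at 170, 10.7 and 20.1 CPM, against a nearly even S100a14. Of 10 basal markers, 8 were at least 2-fold above both others in tumour 1, among them Krt5 at 64.4, 1.62 and 1.46 CPM and Itgb4 at 288, 23.4 and 39.98 CPM, opposite to S100a16. Skin keratinocyte markers, which could accompany S100 genes of the epidermis, summed to 6.72, 13.9 and 6.17 CPM, and 1 of 10 passed the filter. Adipocyte markers summed to 371, 375 and 246 CPM, with 2 of 8 at least 2-fold above both others in tumour 1.

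The spread of the S100 genes between tumours was estimated in 1 negative binomial fit over all genes. The biological coefficient of variation, a measure of spread beyond counting noise, had a median of 66.7% over the 10 genes and 58.8% over all genes past the filter. It was widest for S100a16 at 91.7% and S100a6 at 89.96% and narrowest for S100a14 at 54.2%. The fit draws the value of each gene towards those of other genes. For S100a14, at 12.9 ± 1.59 CPM (SD, n = 3), the 54.2% is therefore far above its own spread between the tumours. Without tumour 1, which has a different lane number, the median was 31.1% for the 10 genes and 32.3% for all genes.

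For each S100 gene, the listed genes most like it were found among 125 others past the filter, by the largest difference of centred log2 CPM over the 3 tumours. S100a8 was nearest to S100a9, at 0.67, and of all 12710 genes 1 other lay within 0.2 of it. S100a4 was nearest to Anxa2 at 0.13, S100a13 to C1qa at 0.10, S100a6 to C1qa at 0.30, S100a16 to Mmp9 at 0.41 and S100a1 to Ager at 0.07. S100a10 and S100a9 were both nearest to the calmodulin gene Calm2, at 0.23 and 0.39. S100a11 was nearest to Trem1 at 0.13 and S100a14 to Pla2g4a at 0.04, beside 571 and 841 genes within 0.2. Likeness over only 3 tumours describes these libraries alone.

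**Figure D5:**
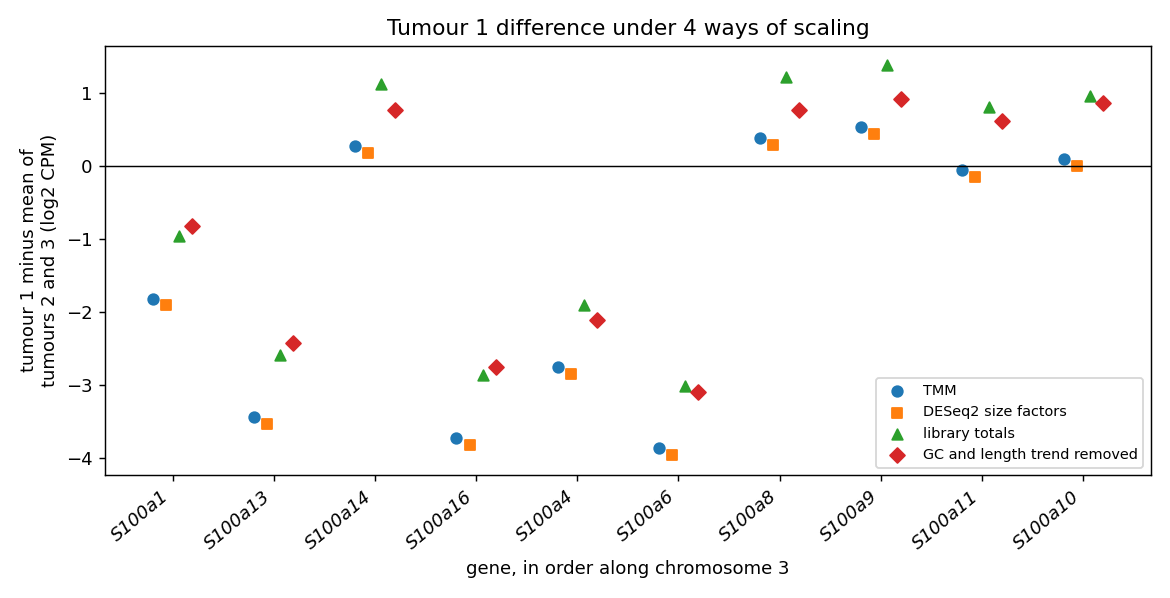
Difference of tumour 1 from the mean of tumours 2 and 3 (log2 CPM) for each S100 gene under 4 ways of scaling. S100a4, S100a6, S100a13 and S100a16 lie below -1.8 under all 4, and S100a1 lies between -1.91 and -0.82.

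In tumour 1, the calls of 4 genes as low held across the scalings shown, while their size varied. The main scaling gave differences of -3.86 for S100a6, -3.72 for S100a16, -3.44 for S100a13 and -2.75 for S100a4 on the log2 scale. Under library totals alone, tumour 1 minus the mean of the others was -3.01 for S100a6, -2.86 for S100a16, -2.58 for S100a13 and -1.90 for S100a4 on the log2 scale. After the trend on transcript length and GC content was removed, the values were -3.10, -2.75, -2.42 and -2.11, so the folds moved by over 1.5 times. For S100a8, S100a9 and S100a14, tumour 1 minus the mean log2 CPM of the others was positive under all 4 scalings, from 0.18 to 1.38. For S100a8 this sign belongs to the log scale, since 6.27 CPM in tumour 1 was below the mean CPM of the others, 7.74. In contrast, S100a11 changed sign, from -0.05 in the main scaling to 0.81 with library totals.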

How the data were processed

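Gene expression in 3 untreated tumours (1 group, 1 library each) was measured by paired-end RNA sequencing of 50 bp reads. For each gene symbol the authors deposited an estimated count from Salmon, per the file headers, unscaled for depth and length. The submitters' processing notes also name STAR, SAMtools, Picard and build mm10. Their versions, the annotation release and the strand setting were not given in the sources used here, so sense and antisense reads cannot be told apart.

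Estimated counts were rounded. Genes were kept with filterByExpr of edgeR 4.0.16 (R 4.3.3; minimum count 10, as CPM at the median library size and met in every tumour, and minimum total 15), and TMM factors applied to the totals were 1.48, 0.722 and 0.936. Log2 CPM used a prior count of 2. A gene was apart in a tumour when at least 2-fold above or below both others. Chi-square tests were Benjamini-Hochberg adjusted at 0.05 over all kept genes. Dispersions came from an intercept-only edgeR fit, which draws the value of each gene towards those of other genes. Intervals are 95% exact Poisson or binomial and cover counting error only; a count of 0 allows 3 counts.

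Positions and lengths came from GENCODE M21 (GRCm38, the assembly of mm10), which gave 97.1% of kept genes a length and GC content. The trend on these was fitted with splines of 5 degrees of freedom. Alternatives were DESeq2 1.42.0 size factors, library totals, other filters, thresholds and prior counts, thinned counts and leaving out each tumour.

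The members and lists were chosen with earlier results of these data known. The naming rule took all S100 genes, the 3 genes with the highest mean CPM and the gene with the largest range in each other list, the nearest genes by likeness, and Anxa2, Tlr4, Ager, Csf3r, Ly6g and Cxcr2. S100a7l2 was not analysed here. Of the genes taken by the rule, those not needed beside an S100 gene are given by their list's counts.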

Additional observations from a re-analysis of the deposited data

How the results depend on the processing

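S100a4, S100a6, S100a13 and S100a16 were called below both others in tumour 1 in all 10 alternatives that kept 3 tumours. S100a1 was so called in 7 of them. Its call ended with library totals alone, at a 4-fold threshold and with the trend on GC content and length removed. The 1.5-fold threshold could not end a call made at 2-fold, and scaling without skeletal muscle genes and Rn18s-rs5 could hardly do so. The 10 alternatives are thus not equally strict. The count of S100 genes apart above in tumour 2 was 2 in place of 1 with DESeq2 size factors, at a 1.5-fold threshold and with the trend on GC content and length removed, where S100a13 joined S100a16. The count above in tumour 3 was 0 in place of 1 with library totals alone and with the trend removed. At a 4-fold threshold the counts above in tumour 2, below in tumour 2 and above in tumour 3 were all 0, in place of 1, 2 and 1. The cause of these changes was not tested, apart from the stricter threshold. Shares of all genes are not given for these alternative counts, so the counts show only how the calls depend on the setting.

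With 1 tumour left out, a gene is set against 1 other tumour only. Shares of all genes are not given for these counts, so they are not a result about the S100 genes. The count of S100 genes above in tumour 1 then ranged from 0 to 2, below in tumour 1 from 5 to 6, above in tumour 2 from 1 to 5, below in tumour 2 from 2 to 3, above in tumour 3 from 3 to 6 and below in tumour 3 from 0 to 1. The median coefficient of variation of the S100 genes ranged from 31.1 to 80.2%, lowest without tumour 1. Over all genes past the filter it ranged alike, from 32.3 to 77.4%, also lowest without tumour 1. Without tumour 2 the mean level was 257 CPM in place of 541 for S100a16, 57.8 in place of 90.02 for S100a13, 11.8 in place of 7.25 for S100a8 and 18.1 in place of 11.96 for S100a9. Without tumour 3 it was 4.05 CPM for S100a8. S100a10 joined S100a8 and S100a9 below in tumour 2 with library totals alone and at a 1.5-fold threshold. The order of the S100 genes per length was the same under other scalings and with merged exon lengths, and 8 of 10 genes held their rank with any 1 tumour left out.

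No paired analysis was possible because there is 1 group. Depth limits S100a8 in tumour 2, which rests on 13 counts, and the family members outside the list of 10.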
